A study of Arabidopsis thaliana with 12 samples.

Results

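The 4 genes described here regulate vascular development in Arabidopsis thaliana. They were measured in roots of lines built to switch on a Dof transcription factor. They are OPS (OCTOPUS, AT3G09070), MOL1 (MORE LATERAL GROWTH1, AT5G51350), PHV (PHAVOLUTA, AT1G30490) and LHW (LONESOME HIGHWAY, AT2G27230). The 4 were picked by locus, with earlier results of these data known. Each had 1 entry on the array, and they make up 4 of the 16548 genes tested. The arrays compared 6 groups of entire roots, 2 biological replicates each: roots given 10 µM estriol, an estrogen, for 16 h, and roots kept on mock plates for the same time, in each of 3 transgenic lines. All lines carry a Dof gene in the estrogen-inducible vector ER8. They are ER8Dof1.1 in the background labelled S32/Col, ER8Dof2.2 in the SUC2p::GFP-GUS background and ER8PEAR2 in the SUC2p::GFP-GUS background, where the SUC2 promoter, active in companion cells of the phloem, drives a reporter. Plants were 68 h old at transfer and grew under continuous light. Neither the promoter behind the ER8 activator nor the number of independent transformants is known from the sources used here. Every line analysed here carries a Dof construct, so an effect of estriol itself and an effect of the Dof protein cannot be told apart.

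The root's vascular cylinder forms from a small set of stem cells. Protophloem, the first sugar-conducting tissue, differentiates close to the root tip, and the procambium between phloem and xylem divides to widen the cylinder. PEAR2 and related Dof factors are known to promote such divisions around the protophloem, while HD-ZIP III factors, the family of PHV, are known to act against them nearer the xylem. OPS is a polar membrane protein needed for protophloem differentiation. MOL1 is a leucine-rich repeat receptor kinase that restrains cambium activity. LHW is a basic helix-loop-helix factor that pairs with TMO5 to drive divisions of vascular initial cells.

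All 4 genes were higher with estriol in all 3 lines, by 1.49-fold for LHW in the ER8PEAR2 line up to 4.07-fold for PHV in the ER8Dof1.1 line and for MOL1 in the ER8PEAR2 line. MOL1 had a change of at least 1.55 on the log2 scale in every line and LHW had the smallest changes. PHV varied most between lines. Each of the 12 changes, 4 genes in 3 lines, passed the threshold (adjusted p under 0.05, limma with Benjamini-Hochberg adjustment over all genes). Of all genes tested, 17.8% passed as higher in the ER8Dof1.1 line, 14.8% in the ER8Dof2.2 line and 8.33% in the ER8PEAR2 line, and 6.06%, or 1002 genes, did so in all 3 lines. The arrays of the 2 treatments did not overlap for any of the 4 genes in any line. Both estriol arrays lay above both mock arrays in 37.4%, 37.7% and 33.6% of all genes in the ER8Dof1.1, ER8Dof2.2 and ER8PEAR2 lines. The 4 genes were picked with earlier results of these data known, so setting them beside these shares is a description only. The smallest gap, between the lower estriol and the higher mock array, was 0.49 for LHW in the ER8Dof1.1 line, and the widest spread between 2 arrays of a group was 0.41 for LHW in ER8Dof2.2 mock roots.

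**Figure D1:**
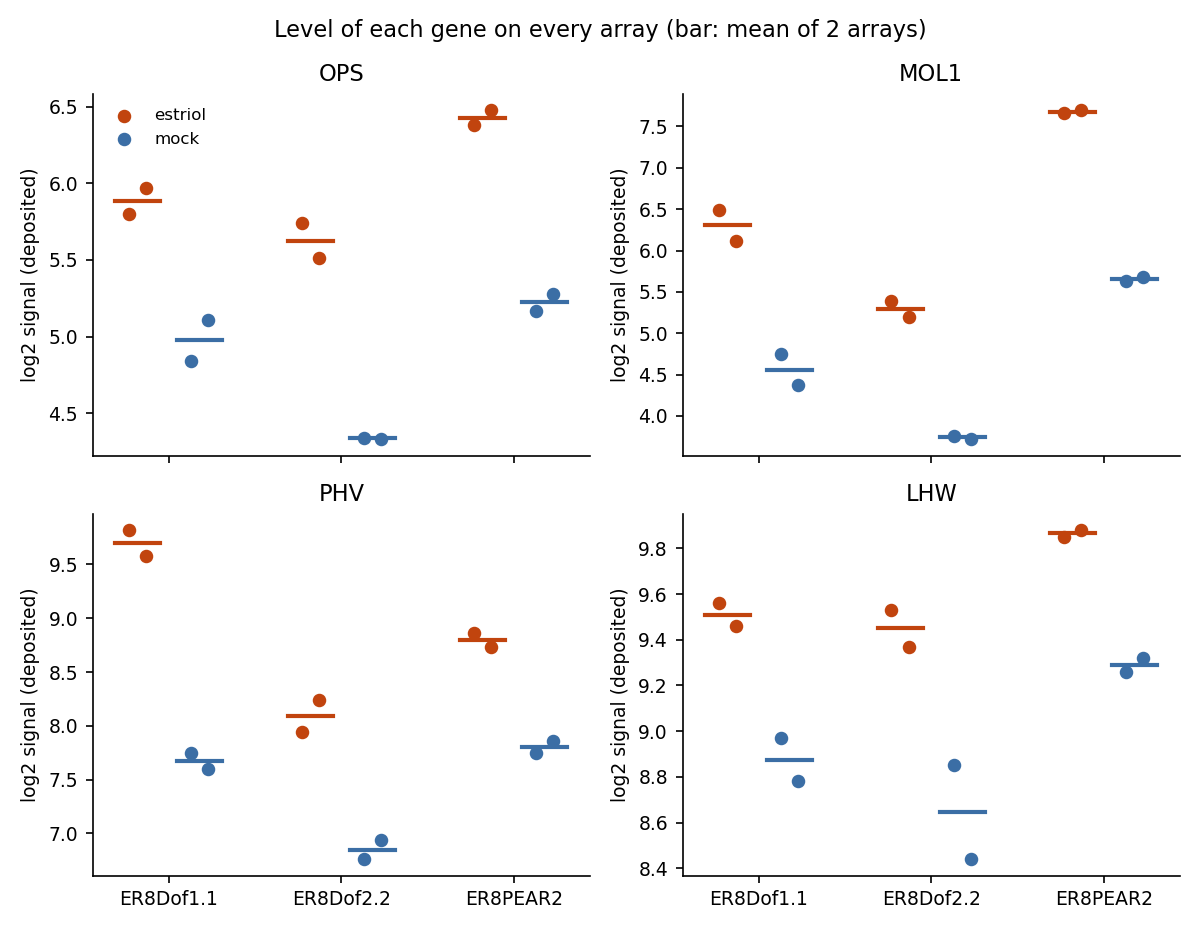
Deposited log2 signal (y axis) of OPS, MOL1, PHV and LHW on each of the 12 arrays, by line (x axis). Points are arrays, bars are means of 2, each panel has its own axis that does not start at 0, and in every panel and line both estriol points lie above both mock points, with the smallest gap at 0.49.

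Signals are log2 values as deposited, and changes are estriol minus mock on that scale with the model's SE. Arrays of one group correlated at 0.988 to 0.995 over all entries, and estriol with mock arrays of one line at 0.91 to 0.959. The targeted genes were checked first. AT5G02460, taken here as the PEAR2 locus, read 12.25 and 12.24 on the estriol arrays of the ER8PEAR2 line, against 7.92 and 7.81 on its mock arrays. Its change was 4.38 there, 1.02 (adjusted p = 0.00293, limma) in the ER8Dof1.1 line and 0.13 (0.698) in the ER8Dof2.2 line. AT2G28810, taken as the DOF2.2 locus, read 8.36 and 9.01 on the estriol arrays of the ER8Dof2.2 line, against 5.39 and 5.91 on its mock arrays. Its rise was not limited to that line: the changes were 2.98, 3.04 and 2.04 in the ER8Dof1.1, ER8Dof2.2 and ER8PEAR2 lines, and each passed. The Dof1.1 transcript is not analysed here. In the marker and gene lists, a gene counts as measured if an array entry names it alone in the platform annotation. Genes not counted as measured may still be on the array. The list of root markers had 2 of 13 genes measured, the root hair expansins EXPA7 and EXPA18. On the log2 scale both read 4.83 to 9.19 over the estriol arrays and 8.9 to 11.07 over the mock arrays, and both passed as lower in every line, with no overlap of the treatments within a line. Their part in the results was not tested, and in entire roots fewer cells of a type and less RNA per cell cannot be told apart. The green shoot list had 1 of 8 genes measured, RCA, the activase of the carbon-fixing enzyme, with changes of -0.15, -0.4 and -0.52 that did not pass in the ER8Dof1.1, ER8Dof2.2 and ER8PEAR2 lines.

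OPS acts on the protophloem. On the estriol arrays of the ER8Dof1.1 line it read 5.8 and 5.97, against 4.84 and 5.11 on the mock arrays. The lowest estriol array thus stood 0.69 above the highest mock array. The log2 change was 0.91 ± 0.15 (SE), which is 1.88-fold with a 95% interval of 1.49 to 2.38 (adjusted p = 0.00103, limma). In the ER8Dof2.2 line OPS read 5.74 and 5.51 with estriol, against 4.34 and 4.33 on mock plates. These mock arrays lay within 0.01 of each other, the closest pair among the 6 groups for this gene. The change was 1.29 ± 0.15, or 2.45-fold (1.93 to 3.09, adjusted p = 0.000118). In the ER8PEAR2 line the estriol arrays gave 6.38 and 6.48 and the mock arrays 5.17 and 5.28. That gap between the treatments was 1.1, and the change was 1.21 ± 0.15, or 2.31-fold (1.82 to 2.92, adjusted p = 0.000339). Of all genes tested, 91.9%, 96.3% and 96.8% had a change below that of OPS in the ER8Dof1.1, ER8Dof2.2 and ER8PEAR2 lines.

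MOL1 is a receptor kinase that acts on the cambium. Its estriol arrays in the ER8Dof1.1 line read 6.49 and 6.12, against mock arrays at 4.75 and 4.37. Replicates differed by 0.37 with estriol and 0.38 on mock plates, far less than the gap of 1.37 between treatments. The change was 1.75 ± 0.17, or 3.35-fold (95% interval 2.56 to 4.39, adjusted p = 3.09e-05, limma). With estriol MOL1 read 5.39 and 5.2 in the ER8Dof2.2 line, against 3.76 and 3.72 on mock plates, the lowest levels of the gene as deposited. The mean there, 3.74, was the closest of any group mean of the 4 genes to the dim range, here the lowest 25% of all entries in a group, which ended at 3.0 in that group. None of the 24 group means, 4 genes in 6 groups, was in that range. The change in the ER8Dof2.2 line was 1.55 ± 0.17, or 2.94-fold (2.24 to 3.85, adjusted p = 8.32e-05). In the ER8PEAR2 line MOL1 read 7.66 and 7.7 with estriol and 5.63 and 5.68 without, with replicates within 0.05 of each other. This gave a change of 2.02 ± 0.17, or 4.07-fold (3.11 to 5.33, adjusted p = 2.95e-05). Shares of 97.0%, 97.4% and 98.5% of all genes had a lower change than MOL1 in the ER8Dof1.1, ER8Dof2.2 and ER8PEAR2 lines. Ranked by the smallest of their 3 changes, MOL1 stood 250th of all genes tested, PHV 467th, OPS 521st and LHW 1012th.

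PHV encodes an HD-ZIP III factor of vascular and leaf patterning, whose messenger RNA is a known target of the microRNAs miR165 and miR166. In the ER8Dof1.1 line it read 9.82 and 9.58 with estriol, against 7.75 and 7.6 on mock plates. The treatments were 1.83 apart at the nearest arrays, and the change was 2.02 ± 0.16, or 4.07-fold (95% interval 3.17 to 5.22, adjusted p = 6.8e-06, limma). The ER8Dof2.2 line gave 7.94 and 8.24 on estriol arrays and 6.76 and 6.94 on mock arrays. There the change was 1.24 ± 0.16, or 2.36-fold (1.84 to 3.03, adjusted p = 0.000227). ER8PEAR2 line arrays read 8.86 and 8.73 with estriol, against 7.75 and 7.86 without. This smallest of the changes of PHV came to 0.99 ± 0.16, or 1.99-fold (1.55 to 2.55, adjusted p = 0.00167). The changes of 97.7%, 96.1% and 95.9% of all genes lay below that of PHV in the ER8Dof1.1, ER8Dof2.2 and ER8PEAR2 lines.

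LHW, the partner of TMO5, had the smallest change of the 4 genes in each line. In the ER8Dof1.1 line its estriol arrays read 9.56 and 9.46 and its mock arrays 8.97 and 8.78. The change was 0.64 ± 0.16, or 1.55-fold (95% interval 1.21 to 2.0, adjusted p = 0.0126, limma). In the ER8Dof2.2 line LHW read 9.53 and 9.37 with estriol, against 8.85 and 8.44 on mock plates. Here the mock replicates differed by 0.41 and the nearest arrays of the treatments by 0.52. The change was 0.81 ± 0.16, or 1.75-fold (1.36 to 2.25, adjusted p = 0.00408). In the ER8PEAR2 line the estriol arrays gave 9.85 and 9.88, and the mock arrays 9.26 and 9.32. The change of 0.57 ± 0.16, or 1.49-fold (1.16 to 1.92), came closest to the threshold of the 12 (adjusted p = 0.034). Shares of 85.9%, 91.7% and 90.6% of all genes had a lower change than LHW in the ER8Dof1.1, ER8Dof2.2 and ER8PEAR2 lines. The call in the ER8PEAR2 line was lost without any 1 of that line's 4 arrays (adjusted p = 0.119 to 0.16), and the call in the ER8Dof1.1 line without its estriol array 1 (0.0677) or its mock array 2 (0.0735). In the ER8Dof2.2 line it was lost when only that line's arrays were fitted (adjusted p = 0.0544).

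**Figure D2:**
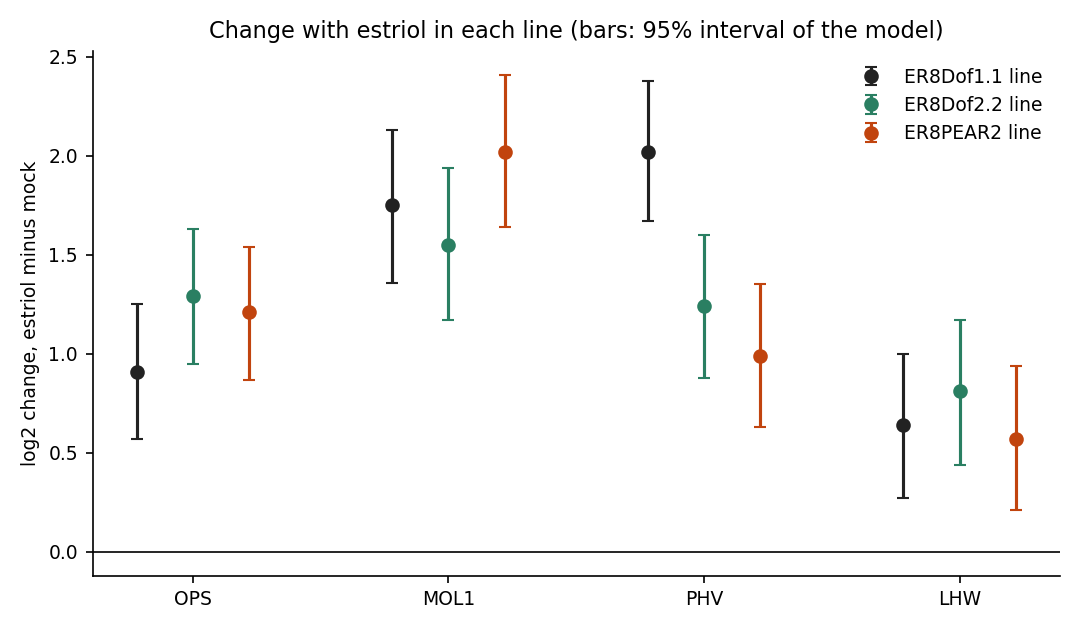
Log2 change, estriol minus mock (y axis), of each gene (x axis) in the 3 lines, as points with 95% intervals of the model from 2 arrays per group. All 12 intervals lie above 0, the lowest bound being 0.21 for LHW in the ER8PEAR2 line, and the point of PHV in the ER8Dof1.1 line (2.02) stands above those in the ER8Dof2.2 (1.24) and ER8PEAR2 (0.99) lines.

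**Figure D3:**
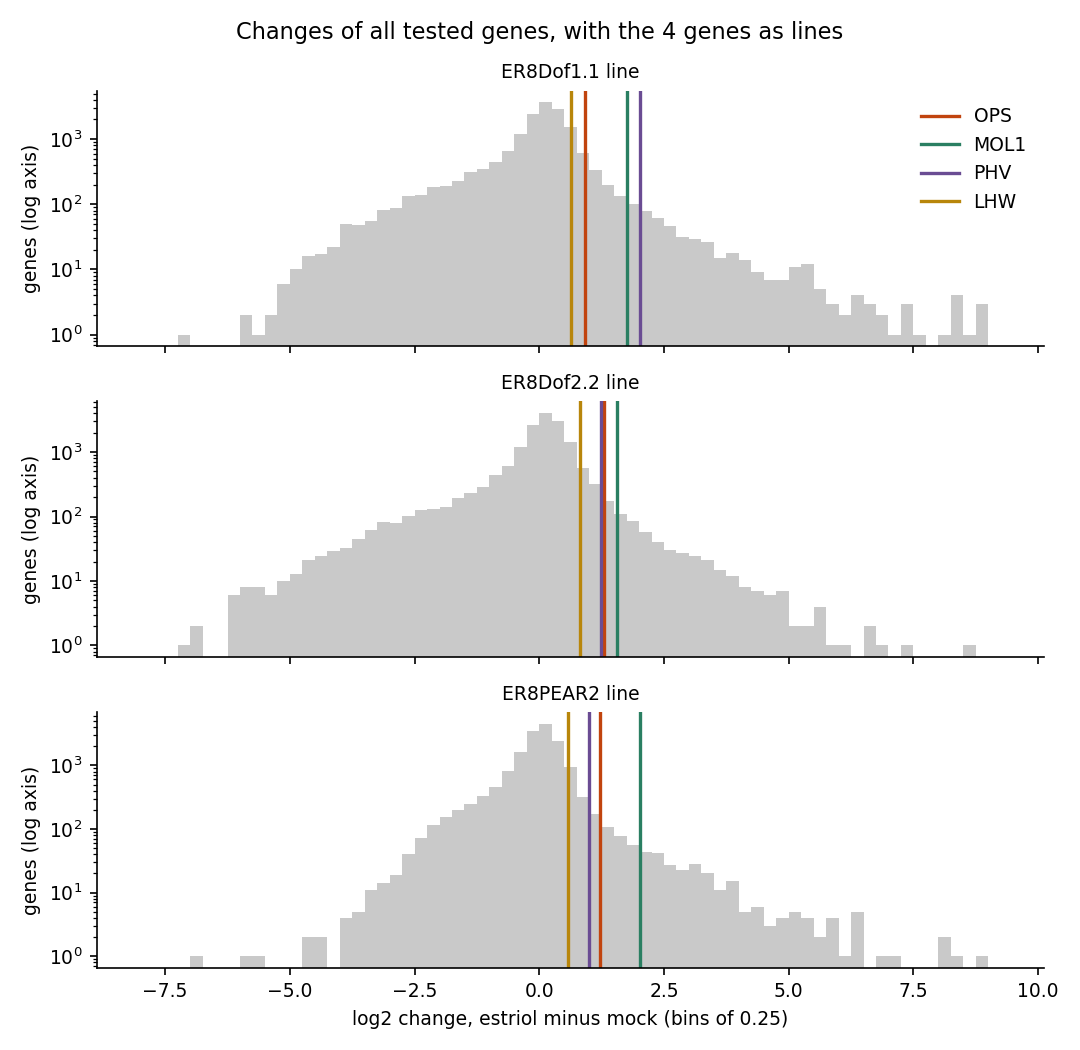
Number of genes (y axis, log scale) by log2 change, estriol minus mock (x axis), in each line, for all 16548 genes tested. Vertical lines mark the 4 genes, which lie on the right shoulder of each distribution, from 0.57 to 2.02, with many genes beyond them on both sides.

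The 3 lines were then compared by the difference of their changes, tested for each gene in the same model. PHV differed between the ER8Dof1.1 and ER8PEAR2 lines. Its change was 2.02 in the ER8Dof1.1 line against 0.99 in the ER8PEAR2 line, a difference of 1.03 ± 0.23 (95% interval 0.53 to 1.54, adjusted p = 0.0414, limma). Of all genes, 2.91% passed in this comparison, 1.53% between the ER8Dof1.1 and ER8Dof2.2 lines and 1.66% between the ER8PEAR2 and ER8Dof2.2 lines. The call was lost without any 1 of the 8 arrays of these lines. With all arrays kept, it was also lost after quantile normalization (adjusted p = 0.0511, limma) and with the replicate number as a block (0.0539). The difference was 0.92 to 1.16 throughout. These lines also differ in their labelled background, S32/Col against SUC2p::GFP-GUS, so construct and background cannot be told apart. Between the ER8Dof1.1 and ER8Dof2.2 lines, which differ in background too, the change of PHV differed by 0.79 ± 0.23 (0.28 to 1.29, adjusted p = 0.177). Between the ER8PEAR2 and ER8Dof2.2 lines, which share a background, it differed by -0.25 ± 0.23 (-0.76 to 0.26, adjusted p = 0.8). Neither passed.

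For OPS, MOL1 and LHW no difference between lines passed the threshold, which does not show that the lines responded alike. The change of OPS in the ER8Dof1.1 line minus that in the ER8Dof2.2 line was -0.38 (95% interval -0.86 to 0.1, adjusted p = 0.629), and minus that in the ER8PEAR2 line -0.29 (-0.77 to 0.18, adjusted p = 0.606). For MOL1 the largest difference was that of the ER8PEAR2 line over the ER8Dof2.2 line, 0.47 (-0.08 to 1.02, adjusted p = 0.53). Its change in the ER8Dof1.1 line minus that in the ER8PEAR2 line was -0.28 (-0.83 to 0.27, adjusted p = 0.689). Differences of LHW lay between -0.23 and 0.06, with intervals that reached -0.74 and 0.57. Over these 3 genes the interval bounds farthest from 0 were -0.86 and 1.02 on the log2 scale.

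**Figure D4:**
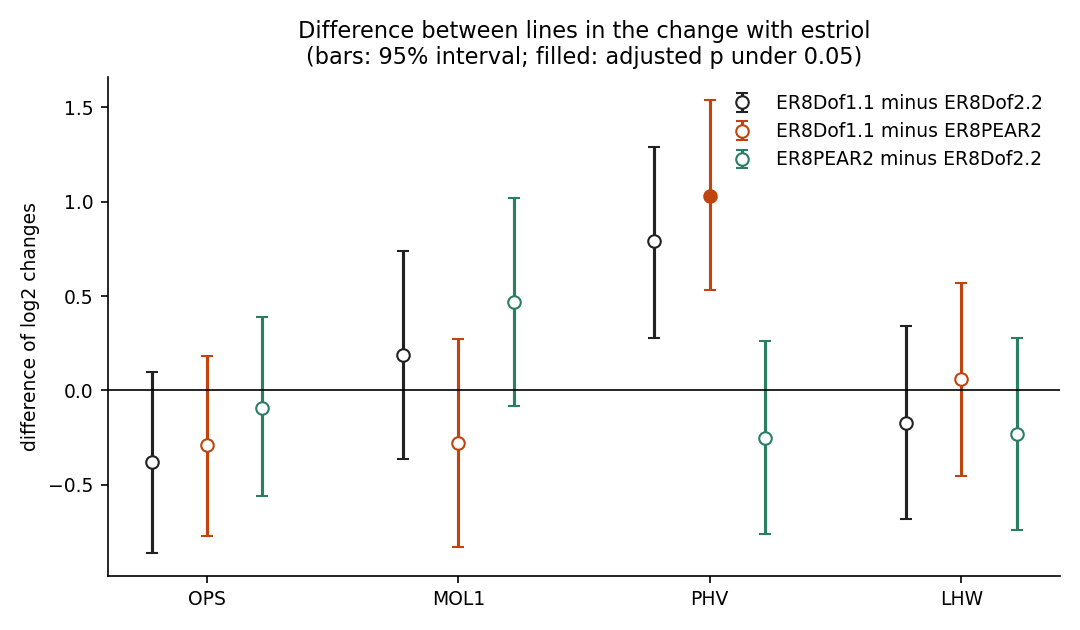
Difference between 2 lines in the log2 change with estriol (y axis) for each gene (x axis), first-named line minus second, with 95% intervals. PHV in the ER8Dof1.1 minus ER8PEAR2 comparison is the filled point (1.03, adjusted p = 0.0414), and the other 11 points are open because they did not pass.

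Levels between lines can only be compared on a common scale. The median signal per array ran from 5.94 to 6.16 in the ER8Dof1.1 line, 5.41 to 5.58 in the ER8Dof2.2 line and 6.48 to 6.57 in the ER8PEAR2 line, and the ER8Dof2.2 line gave the lowest mock value of each of the 4 genes as deposited. The order was therefore taken after quantile normalization over all 12 arrays, given as mean ± SD of 2 arrays. Construct and any separate processing of a line cannot be told apart in these orders. The background of the ER8Dof1.1 line cannot be told apart from them either. MOL1 was highest in the ER8PEAR2 line under both treatments. Its estriol levels were 5.9 ± 0.14 in the ER8Dof2.2 line, 6.36 ± 0.26 in the ER8Dof1.1 line and 7.25 ± 0.04 in the ER8PEAR2 line, with no overlap of arrays between neighbours. Its mock levels were 4.26 in the ER8Dof2.2 line, 4.45 ± 0.28 in the ER8Dof1.1 line, which overlapped the first, and 5.08 ± 0.04 in the ER8PEAR2 line, which did not.

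PHV was highest in the ER8Dof1.1 line under both treatments. With estriol it stood at 8.39 ± 0.1 in the ER8PEAR2 line and 8.5 ± 0.19 in the ER8Dof2.2 line, which overlapped, and at 9.65 ± 0.16 in the ER8Dof1.1 line, apart from both. On mock plates the PHV levels were 7.32 ± 0.12 in the ER8Dof2.2 line and 7.37 ± 0.1 in the ER8PEAR2 line, again overlapping, and 7.63 ± 0.13 in the ER8Dof1.1 line. OPS with estriol stood at 5.96 ± 0.09 in the ER8PEAR2 line, 5.96 ± 0.11 in the ER8Dof1.1 line and 6.2 ± 0.17 in the ER8Dof2.2 line, where the first pair overlapped. Mock levels of OPS ran from 4.62 ± 0.09 in the ER8PEAR2 line to 4.82 ± 0.02 in the ER8Dof2.2 line and 4.84 ± 0.14 in the ER8Dof1.1 line, the last 2 overlapping. LHW with estriol was at 9.46 ± 0.07 in the ER8Dof1.1 line and 9.48 ± 0.01 in the ER8PEAR2 line, which overlapped, and at 9.86 ± 0.15 in the ER8Dof2.2 line. On mock plates LHW stood at 8.87 ± 0.13, 8.89 ± 0.05 and 9.09 ± 0.29 in the ER8Dof1.1, ER8PEAR2 and ER8Dof2.2 lines, each overlapping the next. For each of the 4 genes, the lowest of the 3 estriol groups thus lay above the highest of the 3 mock groups without overlap. That also held with arrays centred on their 75th percentile, but the order of the lines for OPS did not. The overlapping ER8Dof1.1 and ER8PEAR2 lines also changed places for LHW with estriol, at 9.46 and 9.45 on that scale. On that scale OPS with estriol stood at 5.83 in the ER8Dof1.1 line, 6.01 in the ER8PEAR2 line and 6.05 in the ER8Dof2.2 line, the last 2 overlapping, and its mock groups each overlapped the next at 4.8 to 4.96. The mock groups of MOL1 in the ER8Dof2.2 and ER8Dof1.1 lines, at 4.21 and 4.54, did not overlap on that scale.

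Other genes of vascular signalling came from lists written around the 4 genes with earlier results of these data known. Their counts and medians are therefore a description only. The lists held 81 further genes. Only 18 of these were measured as defined above. Of 28583 array entries, 17481 carried a gene name and 16722 named 1 gene, so the other listed genes may still be on the array. Of the 18, 7 passed as higher and 2 as lower in the ER8Dof1.1 line, 7 and 2 in the ER8Dof2.2 line, and 6 and 2 in the ER8PEAR2 line, with medians of 0.47, 0.37 and 0.44 against 0.11, 0.1 and 0.03 for all genes. Of all genes tested, 16.2%, 13.6% and 10.4% passed as lower in the ER8Dof1.1, ER8Dof2.2 and ER8PEAR2 lines, 8.79% did so in all 3, and 34.0%, 28.4% and 18.8% passed in either direction. None of the other 4 HD-ZIP III genes, none of the 14 genes around the control of HD-ZIP III by microRNA and none of the 10 xylem markers was among the genes tested. Of a list of phloem genes, 1 of 10 was measured, the sucrose exporter SWEET11. It passed as higher in the ER8PEAR2 line (change 4.01, adjusted p = 0.000583, limma). Its changes were 1.48 (0.064) and 0.29 (0.752) in the ER8Dof1.1 and ER8Dof2.2 lines, with no test of a difference. In the ER8Dof2.2 line its mock arrays lay far apart, at 6.57 and 8.68, against 7.42 and 8.42 with estriol (SE 0.55).

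The list around OPS had 11 of 29 further genes measured. In the ER8Dof1.1 line 4 passed as higher and 1 as lower, in the ER8Dof2.2 line 4 and 1, and in the ER8PEAR2 line 3 and 1. Of those that passed, 4 are known in the annotation by locus only. AT2G23950 read 8.9 and 8.57 with estriol in the ER8Dof1.1 line, against 6.31 and 6.44 on mock plates, and had changes of 2.36, 2.1 and 2.27 (SE 0.2) in the ER8Dof1.1, ER8Dof2.2 and ER8PEAR2 lines. AT5G01170 changed by 1.32, 1.29 and 0.82 (SE 0.18, adjusted p = 0.000304, 0.000439 and 0.0111, limma). AT5G45840 went the other way, with 5.07 and 4.51 on estriol arrays of the ER8Dof1.1 line against 7.17 and 6.94 on its mock arrays, and changes of -2.27, -3.27 and -1.96 (SE 0.24) in the ER8Dof1.1, ER8Dof2.2 and ER8PEAR2 lines. AT3G46990 passed in the ER8Dof1.1 line alone, at 0.47 ± 0.14 (adjusted p = 0.0305), against 0.33 (0.12) in the ER8Dof2.2 line and 0.45 (0.0557) in the ER8PEAR2 line, with no test of a difference. CLE25 and CLE26 encode small signalling peptides. CLE25 passed in each line with changes of 2.42, 2.54 and 2.35, and CLE26 passed in the ER8Dof2.2 line at 1.25 (adjusted p = 0.00783), against 0.66 (0.0994) in the ER8Dof1.1 line and 0.53 (0.251) in the ER8PEAR2 line, with no test of a difference. CLE45, whose peptide is known to restrain protophloem differentiation, was dim in mock roots of every line and had changes of 0.04, 0.32 and 0.12 that did not pass.

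The list around MOL1 had 5 of 21 further genes measured, and in each line 3 passed as higher and 1 as lower. The risers were CLE41, CLE42 and CLE44, which encode peptides that signal from phloem to cambium. Their changes ran from 0.69 for CLE44 in the ER8Dof1.1 line to 3.26 for CLE41 in the ER8PEAR2 line. PXL1 and PXL2 are receptor kinase genes related to PXY, the receptor of those peptides. PXL2 read 6.22 and 6.11 with estriol in the ER8Dof1.1 line, 5.96 and 5.93 in the ER8Dof2.2 line and 6.96 and 7.19 in the ER8PEAR2 line. Its mock arrays read 7.82 and 7.76, 7.52 and 7.43, and 7.96 and 8.06 in the same lines, so PXL2 was lower with estriol where the receptor kinase gene MOL1 was higher. The changes of PXL2 were -1.62, -1.53 and -0.94 (SE 0.14, adjusted p = 9.66e-06, 1.73e-05 and 0.00085, limma). PXL1 had changes of 0.34, 0.41 and 0.21 that did not pass (adjusted p = 0.105, 0.0632 and 0.384). Around LHW, 2 of 13 further genes were measured, both known by locus only, and neither passed in any line. AT3G56770 had changes of -0.37, -0.02 and -0.21, and AT2G41130 of -0.5, -0.45 and -0.33.

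**Figure D5:**
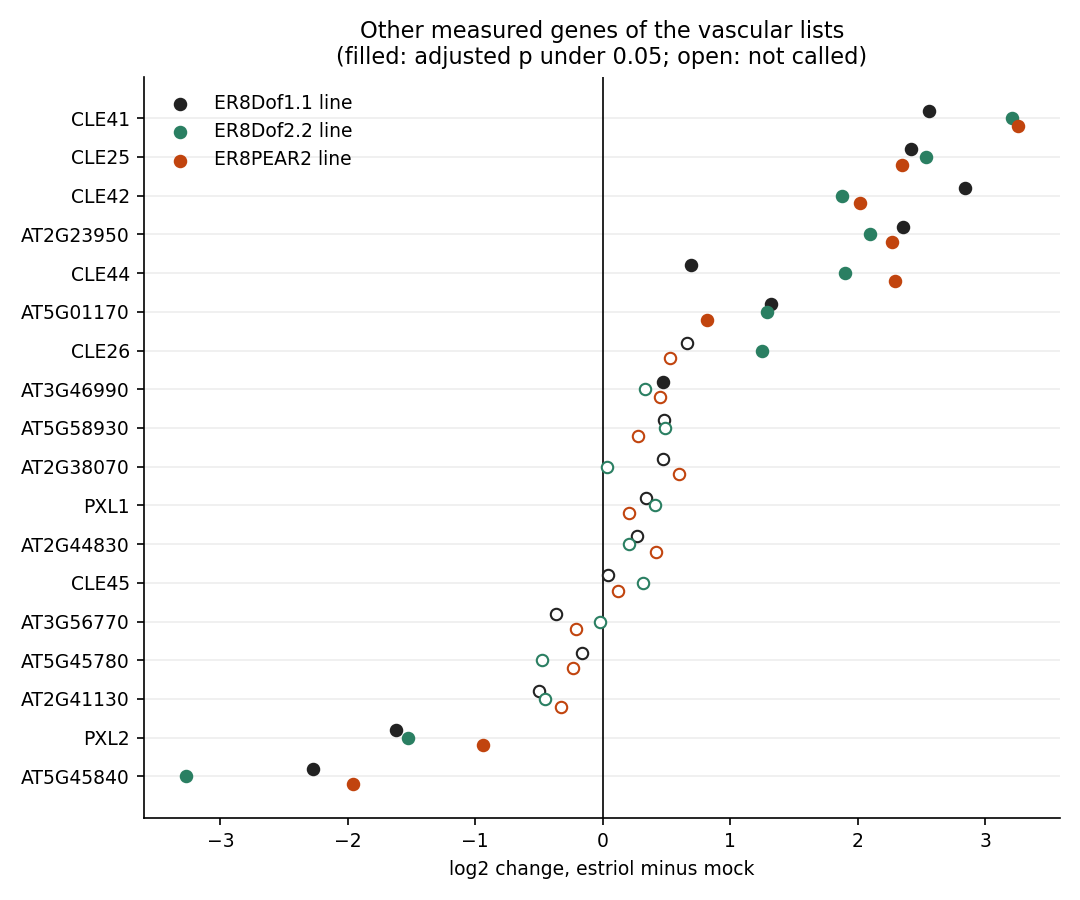
Log2 change, estriol minus mock (x axis), of the 18 other measured genes of the vascular lists (y axis, ordered by mean change), with 1 point per line. CLE41 lies at the top with changes up to 3.26, PXL2 and AT5G45840 lie left of 0 in every line, and open points did not pass the threshold.

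The genes next to the 4 on their chromosomes gave a local comparison. For each, the nearest tested gene on either side was taken, 8 genes in all, which gave 24 comparisons over the 3 lines. None passed in limma, 2 had an unadjusted p under 0.05, and changes ran from -0.4 to 0.74, while 34.0%, 28.4% and 18.8% of all genes passed in the ER8Dof1.1, ER8Dof2.2 and ER8PEAR2 lines. Some of the neighbours were dim, as given below, and these shares are not matched for signal. Beside OPS, with no annotated gene between, AT3G09060 had changes of 0.05, -0.01 and 0.17, and AT3G09080 of 0.08, -0.16 and 0.01, in the ER8Dof1.1, ER8Dof2.2 and ER8PEAR2 lines. Adjacent to MOL1, AT5G51340 had changes of 0.12, 0.26 and 0.15. On its other side AT5G51360 had 0.39, 0.12 and 0.74, the last with adjusted p = 0.0626 at dim levels of 3.06 and 2.88 with estriol, against 2.11 and 2.34 on mock plates. PHV had 3 annotated genes between it and the nearest tested one on either side, AT1G30473 with changes of 0.24, -0.01 and -0.2 and AT1G30515 with 0.07, 0.02 and -0.14. AT1G30515 was dim under both treatments in the ER8Dof1.1 and ER8Dof2.2 lines. Next to LHW, AT2G27229 had changes of 0.2, 0.12 and -0.04, and AT2G27240 of 0.21, 0.04 and -0.4, both at mostly dim levels. Differences between a gene and its neighbours were not tested.

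Genes most like each of the 4 were found by centring every gene on its mean in each line and taking the root mean square difference over the 12 arrays, in log2 units, as a description. Similar changes of the genes found this way follow from that choice. Closest to OPS were AT1G80520 (0.126), AT1G02110 (0.128) and AT5G56530 (0.129). Closest to MOL1 were AT5G62620 at 0.09, the cellulose synthase-like gene ATCSLC08 at 0.103 and AT1G74750 at 0.141. AT5G62620 had changes of 1.79, 1.69 and 2.08 in the ER8Dof1.1, ER8Dof2.2 and ER8PEAR2 lines, beside 1.75, 1.55 and 2.02 for MOL1. PHV was nearest to AT1G45180 (0.126), ATBRXL2 (0.128) and AT2G18780 (0.134). ATBRXL2 belongs to the BREVIS RADIX family, whose founding member regulates protophloem. Its changes were 2.04, 1.41 and 1.12, beside 2.02, 1.24 and 0.99 for PHV. AT1G45180 (1.75, 1.42 and 1.25) and AT2G18780 (1.76, 1.2 and 0.79) had the same order of lines, as genes picked for likeness to PHV would. LHW was nearest to AT3G44430 (0.067), AT3G14890 (0.079) and AT4G17370 (0.081). The 4 genes were not each other's nearest. The nearest of the others ranked 440th from OPS (LHW, 0.279), 170th from MOL1 (PHV, 0.347), 445th from PHV (MOL1, 0.347) and 3538th from LHW (OPS, 0.279). Seen from LHW, PHV ranked 11215th and MOL1 12990th. The measure depends on the size of the changes, which were smallest for LHW, so these ranks do not show unlike patterns. After quantile normalization 2 of 3 nearest genes stayed the same for OPS, MOL1 and PHV, and 1 of 3 for LHW. ATBRXL2 was the one no longer among the 3 nearest to PHV.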

How the data were processed

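Total RNA of entire Arabidopsis roots was labelled with biotin by a GeneChip WT terminal labelling kit and read on 1-colour arrays. The deposited values are log2 signals that RMA produced, per the submitters' processing notes. The sources used here give neither its version nor its summarisation level. Array quantiles differed between lines, so lines may have been normalized separately, and levels are set across lines only after a common normalization.

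Of 28583 entries, 16722 name 1 gene in the platform annotation, and identifiers or names were updated through TAIR10.1 (7 kept their own). Where 148 genes had several entries, the brightest was taken, which left 16548 genes. Limma 3.58.1 in R 4.3.3 fitted 6 group means over 12 arrays with empirical Bayes moderation (6 residual and 3.94 prior degrees of freedom). Two-sided p-values received Benjamini-Hochberg adjustment within each contrast across every gene tested, and 0.05 was the threshold. The number of arrays limits the precision.

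The 4 genes and the lists were chosen with earlier results of these data known. Named besides the 4 were the targeted genes, listed genes that were measured, the 3 nearest genes by root mean square difference and the nearest tested neighbours. In the lists around OPS and MOL1, mainly genes past the threshold in at least 1 line were named, plus CLE45 and PXL1. CLE45, PXL1, RCA, SWEET11 and the expansins were named after their values were seen. Alternatives were quantile normalization, centring by the 75th percentile, removal of the dimmest 25% of genes, trended robust moderation, array weights, single lines, replicate blocks, all entries and leaving out each array. Sequences are not used here.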

Additional observations from a re-analysis of the deposited data

Results flagged for a closer look

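PHV rose more in the ER8Dof1.1 line than in the ER8PEAR2 line, by a test of the difference itself. Its change was 2.02 in the ER8Dof1.1 line, against 0.99 in the ER8PEAR2 line, a difference of 1.03 ± 0.23 (SE; adjusted p = 0.0414, limma), with both estriol arrays above both mock arrays in each line. The lines differ in construct and in labelled background, which cannot be told apart here. The call was lost without any 1 of the 8 arrays of these lines (adjusted p = 0.0624 to 0.155), after quantile normalization (0.0511) and with the replicate number as a block (0.0539), while the difference stayed between 0.92 and 1.16.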

How the results depend on the processing

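Each of the 12 changes with estriol stayed above 0 under all 21 alternatives. Those of OPS, MOL1 and PHV kept their call in all of them, with changes of 0.78 to 1.41 for OPS, 1.46 to 2.17 for MOL1 and 0.93 to 2.15 for PHV. LHW ranged over 0.54 to 0.73 in the ER8Dof1.1 line and 0.54 to 0.6 in the ER8PEAR2 line when single arrays were left out, with adjusted p up to 0.0735 and 0.16. On the ER8Dof2.2 arrays alone its change in that line was 0.8 (adjusted p = 0.0544). The difference of PHV between the ER8Dof1.1 and ER8PEAR2 lines was 1.0 after quantile normalization (adjusted p = 0.0511) and 0.92 to 1.16 without single arrays (adjusted p = 0.0384 to 0.155). Uncalled differences near 0 changed sign without 1 array. That of LHW between the ER8Dof1.1 and ER8Dof2.2 lines became 0.04 without ER8Dof2.2 mock array 2, that of LHW between the ER8Dof1.1 and ER8PEAR2 lines -0.03 without ER8Dof1.1 mock array 2, and that of OPS between the ER8PEAR2 and ER8Dof2.2 lines 0.03 without ER8Dof2.2 estriol array 1. Over all arrays left out in turn these ran from -0.37 to 0.04, -0.03 to 0.15 and -0.2 to 0.03.

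Pairing by replicate number was examined. Residuals around group means of same-numbered estriol and mock arrays correlated at 0.32, 0.17 and 0.13 in the ER8Dof1.1, ER8Dof2.2 and ER8PEAR2 lines, and between lines at -0.08 to 0.11. With the replicate block by number over all lines, the difference of PHV between the ER8Dof1.1 and ER8PEAR2 lines was 1.03 (adjusted p = 0.0539), and neither block changed another call of the 4 genes. Counts of called genes with pairs within a line as the block were 6525, 5601 and 3663 in the ER8Dof1.1, ER8Dof2.2 and ER8PEAR2 lines, against 5623, 4704 and 3105 without it. With all entries tested the counts were 10324, 8829 and 5621, since more were tested, and on the ER8Dof2.2 arrays alone 3095. Without single arrays the count in the ER8PEAR2 line was 1859 to 3184, lowest without ER8PEAR2 mock array 2.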
